A study of Mus musculus with 6 samples.

Results

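A set of genes that includes the fat cell markers Fabp4, Adipoq, Pparg and Plin1 read far higher on a single array of this series, the one labelled Fzd2 mutant replicate 2, than on any other. The 55 genes described here were chosen by that pattern: each had a log2 expression value on that array more than 1 above (over 2-fold) the highest of the other 5 arrays, out of 22180 genes with 1 gene symbol. Of all genes, 58 (0.261%) met this margin, and Mdm2, Egln3 and Bnip3 were left out, as the choice of members required. Because those values chose the genes, the height of mutant replicate 2 is given as a description and was not tested.

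RNA from whole lung buds dissected from mouse embryos at E12.5 was measured on 6 arrays, 100 ng of total RNA each. The control group was 3 arrays of genotype Shh cre/+, and the mutant group was 3 arrays of genotype Fzd2Flox/Flox; Shh cre/+, so both groups carried the Cre allele at Shh, a gene of the lung epithelium. Fzd2, a Frizzled receptor for Wnt ligands, is thus aimed at in the epithelium, while RNA came from the whole organ. The stated purpose was to find genes regulated through Fzd2 in lung epithelium. The labels call the arrays biological replicates and do not say how many lungs went into each. In whole organs, fewer cells of a type and less RNA per cell cannot be told apart.

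Adipocytes store fatty acids as triglyceride in a large lipid droplet. The nuclear receptor PPAR gamma, encoded by Pparg, and the factor encoded by Cebpa drive their differentiation and switch on genes of fatty acid uptake (Cd36, Lpl, Fabp4), of triglyceride synthesis (Agpat2, Dgat2, Gpd1), of the lipid droplet coat (Plin1, Cidec) and of hormones (Adipoq, Retn). In the mouse, lipid-filled fat cells form late in gestation and after birth.

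The array labelled mutant replicate 2 was not the only one to stand apart. By the same margin 66 genes were high only in control replicate 1, where the mean of 12 small intestine genes was 9.17 against 6.26 to 6.44 on the other arrays, and 0 to 7 genes were high only in each of the other 4. No gene lay more than 1 below all others in mutant replicate 2. As a check of the labels, Fzd2 values were 9.57, 9.82 and 9.75 for controls and 9.67, 9.07 and 9.54 for mutants (replicates 1 to 3 in order), so its lowest value was in mutant replicate 2 and mutant replicate 1 lay within the control range (mutant minus control -0.29, SE 0.15, limma adjusted p = 0.475). The position of its probes relative to the deleted part is unknown here. Lung identity genes were present on that array: Nkx2-1, the lung and thyroid factor of the epithelium, read 10.09 there against 10.05 and 10.09 in the other mutants and 10.41, 10.57 and 10.49 in controls (mutant minus control -0.41, SE 0.05, limma adjusted p = 0.075), the mesenchymal factor gene Foxf1 read 12.03 against 12.05 to 12.20 on the other arrays, and the surfactant gene Sftpc read 10.39 against 10.08 to 11.06.

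Among the 55 genes the margin over the highest other array had a median of 1.66 on the log2 scale, or 3.15-fold, and ran from 1.00 (Cdsn) to 4.40 (Fabp4), or 21.1-fold. It was above 2 in 20 genes and above 3 in 5, while 21 genes lay between 1 and 1.5. The range of the other 5 arrays was under 0.5 in 48 of the 55 genes (87.3%, against 95.2% of all genes), with a median of 0.32 (0.20 over all genes). The mean over the 55 genes was 9.51 in mutant replicate 2 and between 7.314 and 7.496 on each of the other arrays.

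**Figure D1:**
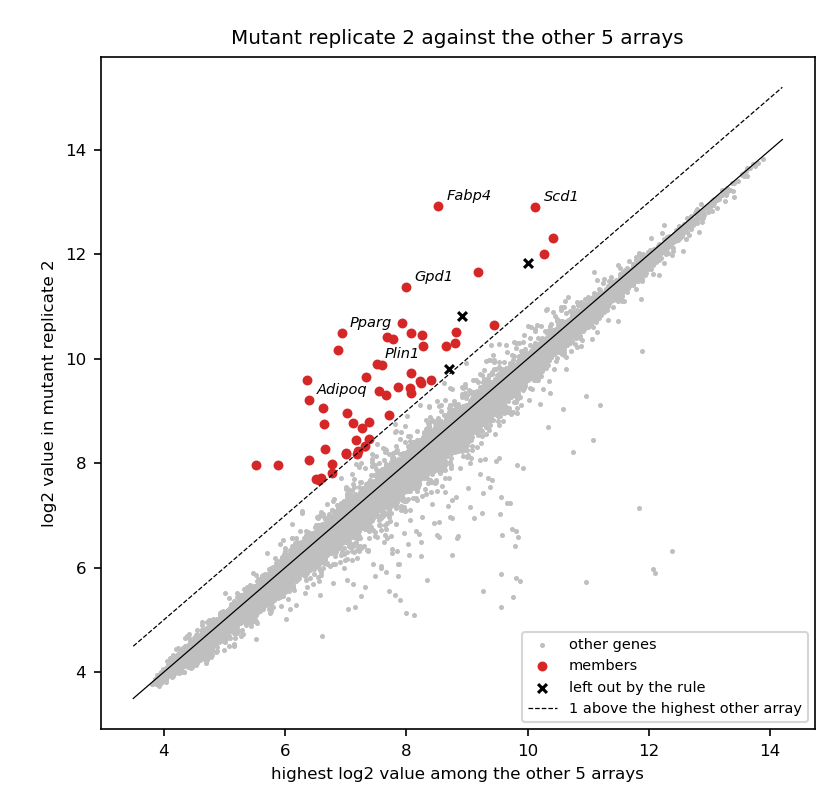
Log2 value in mutant replicate 2 (vertical axis) against the highest log2 value of the other 5 arrays (horizontal axis) for 22180 genes; red points are the 55 members, crosses are the 3 genes left out, the solid line marks equal values and the dashed line a margin of 1. Fabp4 lies farthest above the dashed line, with a margin of 4.40, and the genes far below the solid line are high on another array.

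Adipogenic transcription factors gave 2 members, Pparg and Cebpa, of 18 such genes read, whose median margin was 0.10. Pparg read 6.77, 6.69 and 6.94 in control replicates 1 to 3, 6.70 and 6.76 in mutant replicates 1 and 3 and 10.49 in mutant replicate 2, a margin of 3.55 (11.7-fold). Cebpa, which sustains Pparg expression in adipocytes, read 6.83, 7.10 and 7.15 in controls, 7.18 and 7.08 in the other mutants and 8.45 in mutant replicate 2, a margin of 1.28. The other 5 arrays spanned 0.25 for Pparg and 0.35 for Cebpa, and controls and the other mutants overlapped in both. The promoter windows of 3 marker genes are printed to show the stretch in which motifs of nuclear receptors and of the core promoter were searched (RefSeq, GRCm38.p6, 250 bases before to 50 after the gene start, each 5′ to 3′ on the gene's strand). Capitals mark an AGGTCA motif, bound by nuclear receptors, or a TATAAA motif on either strand. The Adipoq window lies at chr16:23146286-23146585 (plus strand), that of Plin1 at chr7:79732727-79733026 (minus strand) and the second of 3 Pparg windows at chr6:115362099-115362398 (plus strand).
Adipoq: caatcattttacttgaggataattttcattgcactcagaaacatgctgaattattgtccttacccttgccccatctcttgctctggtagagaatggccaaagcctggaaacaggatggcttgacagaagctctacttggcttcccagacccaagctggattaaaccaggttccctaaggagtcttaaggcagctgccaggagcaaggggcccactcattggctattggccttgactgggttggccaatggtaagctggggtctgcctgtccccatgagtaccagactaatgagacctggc
Plin1: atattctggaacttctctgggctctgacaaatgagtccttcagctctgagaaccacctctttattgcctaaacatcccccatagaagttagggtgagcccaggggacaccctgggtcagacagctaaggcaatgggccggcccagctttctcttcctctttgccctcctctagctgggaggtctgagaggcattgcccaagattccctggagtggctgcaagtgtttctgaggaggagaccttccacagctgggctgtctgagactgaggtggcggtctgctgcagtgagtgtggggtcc
Pparg: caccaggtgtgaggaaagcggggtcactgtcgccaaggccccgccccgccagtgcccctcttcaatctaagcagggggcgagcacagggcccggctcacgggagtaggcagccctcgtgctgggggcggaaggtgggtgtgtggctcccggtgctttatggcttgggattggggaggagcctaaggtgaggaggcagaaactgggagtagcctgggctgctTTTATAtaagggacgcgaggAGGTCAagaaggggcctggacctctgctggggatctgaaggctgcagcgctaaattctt

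The printed Pparg window held AGGTCA starting 9 bases before the gene start and TTTATA, the reverse complement of TATAAA, starting 29 bases before it. Of the Pparg windows not printed, the first held only AGGTCA, starting 28 bases before its start, and the third held neither motif. Neither motif was in the windows of Adipoq or Plin1. Of the 55 genes, 36 had a window in the table. AGGTCA (both strands) was in the windows of 6 of the 36 (16.7%), namely Cd36, Cdkn2c, Dhrs9, Lpin1, Pcx and Pparg, against 16.4% of the 16990 genes with a window. TATAAA was in 7 (19.4%, against 14.3%) and the E-box CACGTG in 4 (11.1%, against 9.19%). The direct repeat of AGGTCA with 1 base between the copies, which is the kind of element that PPAR gamma binds with its partner RXR, and the C/EBP palindrome TTGCGCAA were in 0 of the 36 and in 0.0647% and 0.253% of all genes. Median GC content was 58.3% in the windows of the 36 genes and 56.3% over all genes.

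Hormones and receptors of adipocytes gave 7 members, with margins from 1.00 to 2.83. Adipoq, which encodes the adipocyte hormone adiponectin, read 5.91, 5.94 and 6.39 in controls, 5.99 and 5.98 in mutant replicates 1 and 3 and 9.22 in mutant replicate 2, 7.10-fold above the highest other array. Adipoq, Aspn and Dhrs9 were the 3 members that a filter at the 30th percentile of mean expression removed, and the other 52 passed it. That mean took in mutant replicate 2, whose height raised it in every member, so passing says little about the other arrays. Retn, the resistin gene, read 9.66 in mutant replicate 2 against 7.02 to 7.34 elsewhere. Klb, a co-receptor for endocrine fibroblast growth factors, had a margin of 2.10 and Orm1, an acute-phase plasma protein gene also expressed in fat, one of 1.66. Hcar2, a receptor for ketone bodies and niacin, Trarg1, which acts in trafficking of the insulin-regulated glucose transporter, and Ffar4, a receptor for long-chain fatty acids, had margins of 1.13, 1.12 and 1.00. Lep, the leptin gene of fat cells, named after its values were seen, did not share the pattern: it read 6.44 in mutant replicate 2 and 6.24 to 6.42 elsewhere.

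Fatty acid uptake and transport gave 5 members. Fabp4, the fatty acid-binding protein of adipocytes, read 6.08, 5.99 and 8.52 in control replicates 1 to 3, 6.73 and 6.44 in mutant replicates 1 and 3 and 12.92 in mutant replicate 2. Control replicate 3 was thus 1.79 above the other 4, and without it the margin of Fabp4 would be 6.18. Cd36, a fatty acid translocase, read 7.57, 7.51 and 7.59 in controls, 7.93 and 7.59 in the other mutants and 10.68 in mutant replicate 2. Lpl, the lipoprotein lipase that frees fatty acids from plasma triglyceride, read 8.76, 9.01 and 9.13 in controls, 9.19 and 9.02 in the other mutants and 11.66 in mutant replicate 2, 5.55-fold above the highest other array, or 2.80-fold with its 2 probe sets averaged. The apolipoprotein genes Apoc1 and Apod had margins of 1.602 and 1.04.

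Genes of the lipid droplet and of lipolysis gave 5 members. Plin1, the perilipin that coats the droplet of adipocytes, read 7.13, 7.06 and 7.51 in controls, 7.40 and 7.39 in mutant replicates 1 and 3 and 9.90 in mutant replicate 2, a margin of 2.39. Cidec, which fuses lipid droplets, read 7.24, 6.87 and 7.68 in controls, 7.11 and 7.07 in the other mutants and 10.41 in mutant replicate 2. Pnpla2, the first lipase of triglyceride breakdown, read 10.50 there and 7.89 to 8.07 elsewhere. Lgals12, a galectin of the droplet surface, and Plin4, another perilipin, had margins of 2.27 and 1.07. Lipe, the hormone-sensitive lipase gene, lay just outside the margin at 0.94.

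Triglyceride and fatty acid synthesis gave 6 members, and all of them except Scd1 cover successive steps of one pathway. Gpd1, which makes glycerol 3-phosphate, read 7.996, 7.56 and 7.999 in controls, 7.48 and 7.60 in the other mutants and 11.37 in mutant replicate 2, 10.4-fold above the highest other array, or 3.32-fold with its 2 probe sets averaged. Of the acyltransferase and phosphatase steps that follow, Gpat3 had a margin of 1.21, Agpat2 of 1.502, Lpin1 of 1.39 and Dgat2 of 2.21. Scd1, the desaturase that makes monounsaturated fatty acids, read 9.69, 9.88 and 10.13 in controls, 9.23 and 9.06 in mutant replicates 1 and 3 and 12.91 in mutant replicate 2, so the other mutants lay below all controls while mutant replicate 2 lay 6.86-fold above them.

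Mitochondrial and pyruvate metabolism gave 6 members. Car5b, a mitochondrial carbonic anhydrase, read 7.54, 7.22 and 7.62 in controls, 7.61 and 7.79 in the other mutants and 10.38 in mutant replicate 2. Pcx, the pyruvate carboxylase gene, read 10.24 there against 8.03 to 8.27 elsewhere, and Pck1, which makes phosphoenolpyruvate and feeds glycerol synthesis in fat, 8.78 against 6.82 to 7.38. Adhfe1, a mitochondrial hydroxyacid transhydrogenase, had a margin of 1.83. The cytochrome c oxidase subunit genes Cox7a1 and Cox8b, isoforms of heart, muscle and brown fat, each had a margin of 1.62.

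Other enzymes gave 6 members. Aoc3, a copper amine oxidase abundant in adipocytes and vascular smooth muscle, read 5.98, 5.97 and 6.36 in controls, 6.03 and 6.10 in the other mutants and 9.60 in mutant replicate 2. Cbr2, a carbonyl reductase known from adult airway and also from fat cells, read 9.06 against 6.44 to 6.63. Dhrs9, a retinol dehydrogenase, had a margin of 2.07, Naaa, a lysosomal amidase, of 1.69, Hmox1, the inducible heme oxygenase, of 1.35 and Ephx2, the soluble epoxide hydrolase, of 1.03.

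The remaining 18 members are matrix, stress, nuclear and membrane genes. Dpt, the matrix protein dermatopontin, read 6.63, 6.46 and 6.71 in controls, 6.65 and 6.87 in mutant replicates 1 and 3 and 10.16 in mutant replicate 2, the fourth widest margin of all (3.29). Aspn, the small leucine-rich proteoglycan asporin, read 5.29, 5.27 and 5.46 in controls, 5.53 and 5.51 in the other mutants and 7.96 in mutant replicate 2. Igfbp7, a secreted growth factor-binding protein, Nrn1, the neuritin gene, and 2610528A11Rik, which carries the symbol of a predicted transcript, had margins of 1.602, 1.67 and 1.96. Genes of stress, the cell cycle and the nucleus were Ero1a, an oxidase of the endoplasmic reticulum (1.90), Nabp1, a single-stranded DNA-binding protein (1.64), the interferon-inducible Ifi27 (1.41), the paraspeckle RNA Neat1 (1.29), the stress-induced Nupr1 (1.22) and Cdkn2c, an inhibitor of cyclin D kinases (1.19). The last 7 were the transporter genes Slc35e3 (1.73) and Slc36a2 (1.18), the calcium-binding S100a1 (1.26), Grina (1.22), the oncostatin M receptor gene Osmr (1.19), the annexin gene Anxa8 (1.17) and Cdsn, an adhesion protein of cornified skin (1.00).

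**Figure D2:**
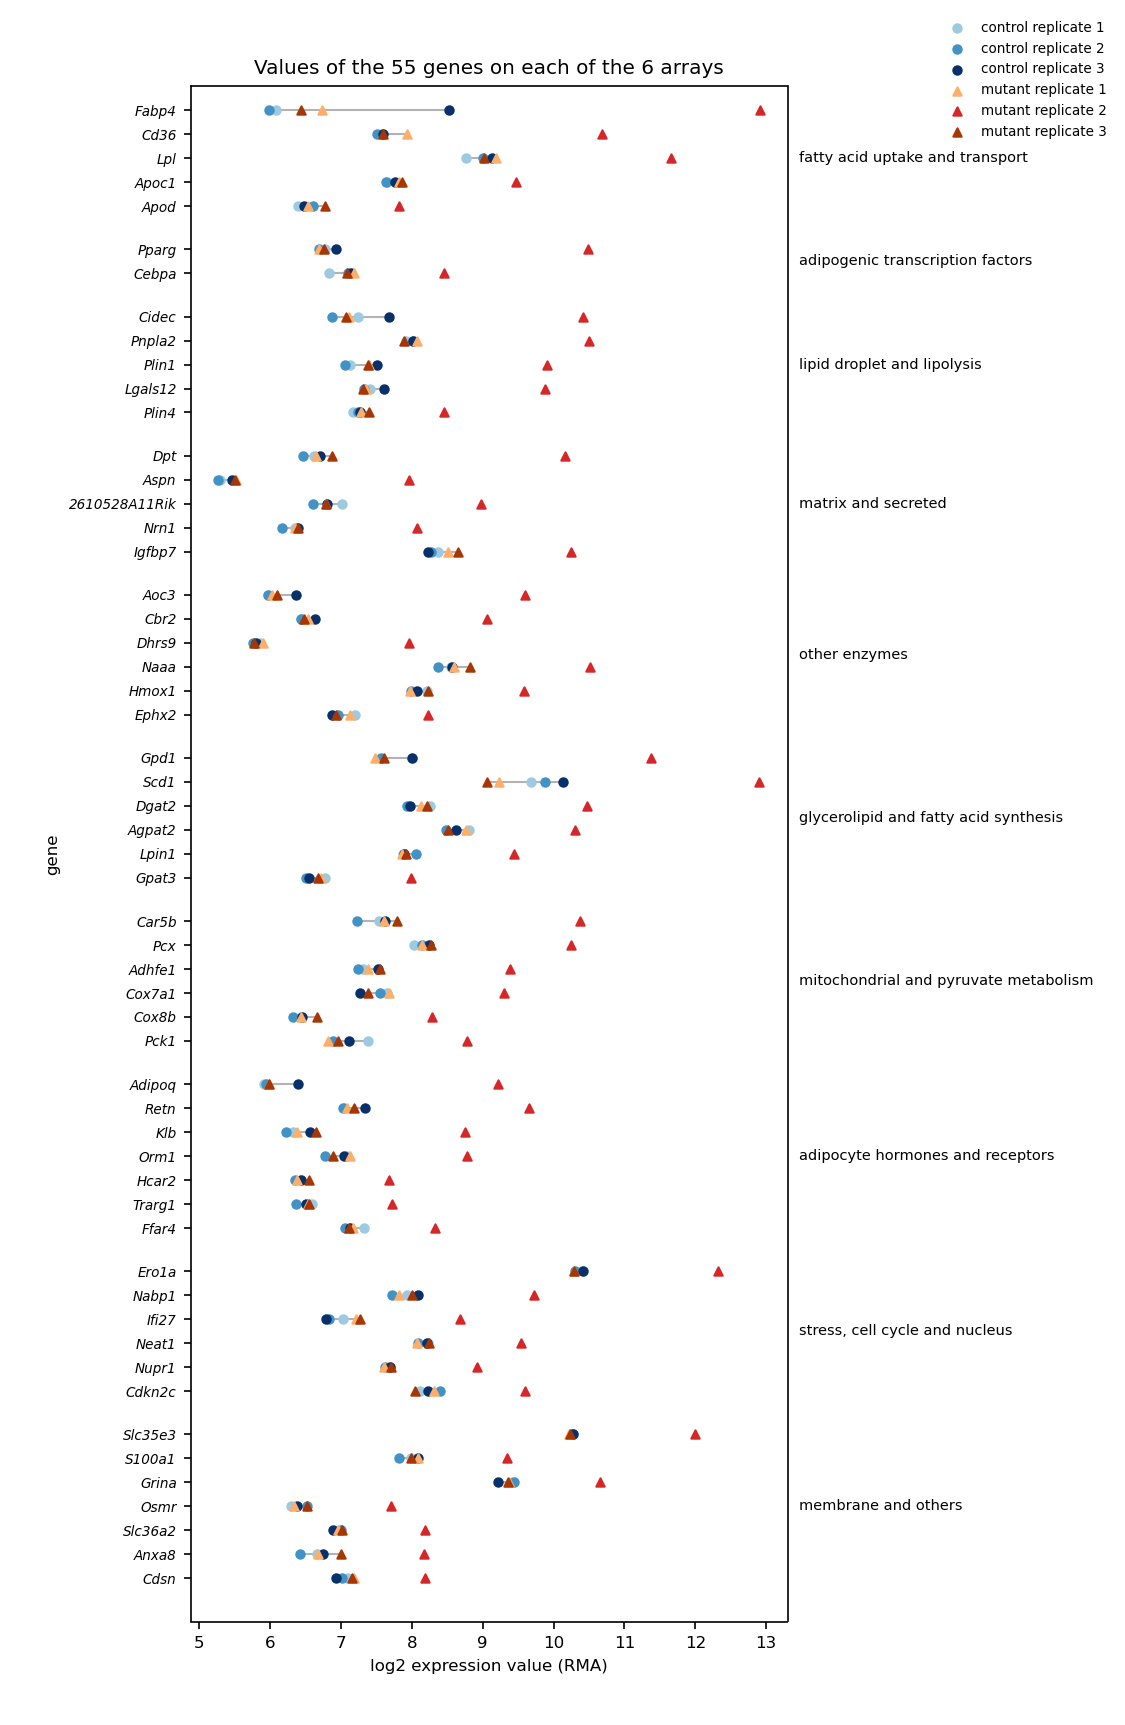
Log2 expression values (horizontal axis) of the 55 genes (rows, grouped by role after their values were seen) on each array; circles are controls, triangles are mutants, and the grey line spans the 5 arrays other than mutant replicate 2. The red triangle of mutant replicate 2 lies at least 1.00 to the right of every other point in each row, and the widest grey line is that of Fabp4, where control replicate 3 reads 8.52.

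Slc35e3 had the narrowest range on the other 5 arrays, from 10.21 to 10.27, and read 11.999 in mutant replicate 2. In the reference gene order it is the direct neighbour of Mdm2, a ubiquitin ligase gene and 1 of the 3 genes left out, which read 9.91, 9.98 and 9.997 in controls, 10.01 and 9.84 in mutant replicates 1 and 3 and 11.83 in mutant replicate 2. This was the only adjacent pair among the 58 genes above the margin. The 5 measured genes on either side did not share the pattern: their margins ran from -5.23 (Lyz1, high in control replicate 1) to 0.08, with -0.26 for Cpm and -0.20 for Nup107, the nearest on each side. The other left-out genes, Egln3 and Bnip3, both of the hypoxia response, had margins of 1.90 and 1.09.

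Genes just inside and just outside the margin had similar values. Inside, Ephx2 read 7.20, 6.96 and 6.88 in controls, 7.13 and 6.93 in mutant replicates 1 and 3 and 8.23 in mutant replicate 2. Ffar4 read 7.33, 7.05 and 7.13 in controls, 7.17 and 7.11 in the other mutants and 8.33 in mutant replicate 2. Cdsn read 7.11, 7.02 and 6.93 in controls, 7.18 and 7.15 in the other mutants and 8.18 in mutant replicate 2. Their margins were 1.03, 1.00 and 1.00, and those of the nearest genes outside were 0.96, 0.94 and 0.94. Mrap, an accessory protein gene of melanocortin receptors, read 7.27, 7.27 and 7.16 in controls, 7.32 and 7.29 in the other mutants and 8.28 in mutant replicate 2. Lipe read 7.72, 7.63 and 7.74 in controls, 7.81 and 7.82 in the other mutants and 8.76 in mutant replicate 2. Cav2, a caveolin gene, read 8.78, 8.88 and 8.99 in controls, 8.92 and 8.84 in the other mutants and 9.93 in mutant replicate 2. All 3 genes outside have known roles in fat cells.

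Genes of fat tissue outside the 55 were read from 9 lists. Together the lists held 148 measured genes, of which 25 were members, so 30 members stood in no adipose list. The lists are not the groups used above, so counts under similar names differ. Klb, Trarg1, Gpat3, Apod and Aoc3, for example, are among the 30. Of the 148, mutant replicate 2 was the highest array in 94, against 19.3% of all genes; without the members, which had to be, it was the highest in 69 of 123. The median margin of those 123 was 0.04, against -0.10 over all genes. The mean over the same 123 genes was 8.80 in mutant replicate 2 and 8.53 to 8.59 on the other arrays.

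Lists of identity and lipid storage genes held 7, 7, 4 and 4 members. Of 24 adipocyte hormone and identity genes 7 were members, and beyond them Mrap and Pnpla3 (0.85), a lipase relative, came nearest, while Rbp4, the retinol-binding protein gene, and Npr3, a natriuretic peptide receptor gene, had margins of -0.16 and -0.15. Of 21 lipid synthesis genes 7 were members, followed by Acss2 (0.69), which makes acetyl-CoA, and Slc25a1 (0.64), the citrate carrier, and the lowest were Acly (-0.13) and Elovl6 (-0.07), although both act in fatty acid synthesis. Of 17 lipid droplet and lipolysis genes 4 were members, followed by Lipe and the glycerol channel gene Aqp7 (0.82), with Mgll (-0.18) and Fitm1 (-0.17) lowest. Of 13 fatty acid uptake genes 4 were members. Beyond them the lipoprotein receptor gene Vldlr had a margin of 0.78 and the lipase inhibitor gene Angptl4 of 0.31, and Acsl5 and Slc27a4 had -0.43 and -0.41.

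The other 5 lists cover factors, brown fat, oxidation, insulin response and preadipocytes. Of 18 adipogenic factor genes only Pparg and Cebpa were members. Ebf1 (0.78) and Klf15 (0.44) followed, and Klf5 (-0.61) and Srebf1 (-0.33) were lowest. Of 22 brown fat genes the members were Cox7a1 and Cox8b, with Cidea at 0.56 and Pdk4 at 0.51, while Esrrg (-0.27) and the deiodinase gene Dio2 (-0.20) were lowest. The margin of Ucp1, the uncoupling protein that defines brown fat, was -0.05 (chosen after its values were seen). Fatty acid oxidation gave 0 members of 16 genes, with Acadm (0.56) and Acadvl (0.33) highest and Ehhadh (-0.14) and Acads (-0.10) lowest. Insulin and glucose handling gave 0 of 12, with Cav2 (0.94) and Gys1 (0.49) highest and the insulin receptor substrate genes Irs2 (-0.15) and Irs1 (-0.11) lowest. Preadipocyte genes gave 0 of 11: Col5a3 (0.18) and Gas6 (0.17) were highest and Dpp4 (-0.86) and Fap (-0.25) lowest.

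Markers of other cell types and tissues were read in the same way from 12 lists. The only member among them was Cbr2, in the adult lung list. Mutant replicate 2 was the highest array in 19.3% of all genes. By list it was the highest in 0 of 10 endothelial and 0 of 12 small intestine genes. The counts were 3 of 13 leukocyte, 3 of 22 skeletal muscle, 3 of 12 keratinocyte, 3 of 10 liver, 3 of 6 erythroid and 2 of 9 mammary genes. They were 1 of 8 cartilage, 1 of 6 neuron, 1 of 11 embryonic lung and 1 of 10 adult lung genes, the last being the member Cbr2. List means in mutant replicate 2 lay within the range of the other arrays for skeletal muscle (6.93 against 6.81 to 7.01), leukocytes (7.82 against 7.72 to 7.95) and liver (6.73 against 6.57 to 6.95). The same held for neurons (7.61 against 7.49 to 7.84). For mammary secretory cells (5.93) and the small intestine (6.44) only control replicate 1 was higher, at 5.96 and 9.17, and the remaining 4 arrays gave 5.78 to 5.82 and 6.26 to 6.43. The mean was lowest in mutant replicate 2 for endothelium (9.81 against 9.84 to 9.91) and cartilage (7.64 against 7.65 to 7.74). It was highest there for keratinocytes (6.94 against 6.81 to 6.93) and erythroid cells (8.37 against 8.02 to 8.35). For the 9 adult lung genes other than the member Cbr2 it was 6.79, within the 6.79 to 6.99 of the other arrays. Of 11 embryonic lung genes, 7 had their lowest value in mutant replicate 2 (20.7% of all genes), whose list mean of 10.45 lay beside 10.44 in mutant replicate 3 and 10.59 to 10.71 on the other arrays. The part of the marker levels in the height of the 55 genes was not tested.

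Margins of single markers follow, the 2 highest and 2 lowest of each list, leaving out the member Cbr2 (2.42, adult lung list). In skeletal muscle the highest margins were those of Mb (0.12) and Myod1 (0.08) and the lowest those of Tnni1 (-0.41) and Casq1 (-0.88). Keratinocyte margins ran from 0.27 in Sbsn and 0.01 in Flg down to -0.23 in Dsg1a and Krt14, and mammary margins from 0.50 in Xdh and 0.00076 in Glycam1 down to -0.27 in Csn2 and -0.40 in Muc1. Liver genes ran from Fgb (0.08) and Ahsg (0.05) to Alb (-0.44) and Apoa1 (-1.85), and intestinal genes from Cdx2 (-0.11) and Lct (-0.98) to Sis (-4.32) and Lyz1 (-5.23). In adult lung Hopx (-0.04) and Ager (-0.08) were highest and Sftpa1 (-0.51) and Lyz2 (-0.61) lowest, and in embryonic lung Fgf10 (0.09) and Tbx4 (-0.17) were highest and Cdh1 (-0.52) and Sftpc (-0.67) lowest. Endothelial margins ran from Pecam1 (-0.06) and Tie1 (-0.09) to Esam (-0.21) and Emcn (-0.23), and leukocyte margins from Itgam (0.03) and Cd3e (0.01) to Adgre1 (-0.50) and Lyz2. In erythroid cells Gata1 (0.21) and Epor (0.05) were highest and Hbb-bh1 (-0.16) and Hba-x (-0.18) lowest. In cartilage Comp (0.05) and Matn3 (-0.04) were highest and Sox9 (-0.38) and Hapln1 (-0.50) lowest, and in neurons Ret (0.0049) and Elavl4 (-0.07) were highest and Stmn2 (-0.37) and Tubb3 (-0.52) lowest.

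**Figure D3:**
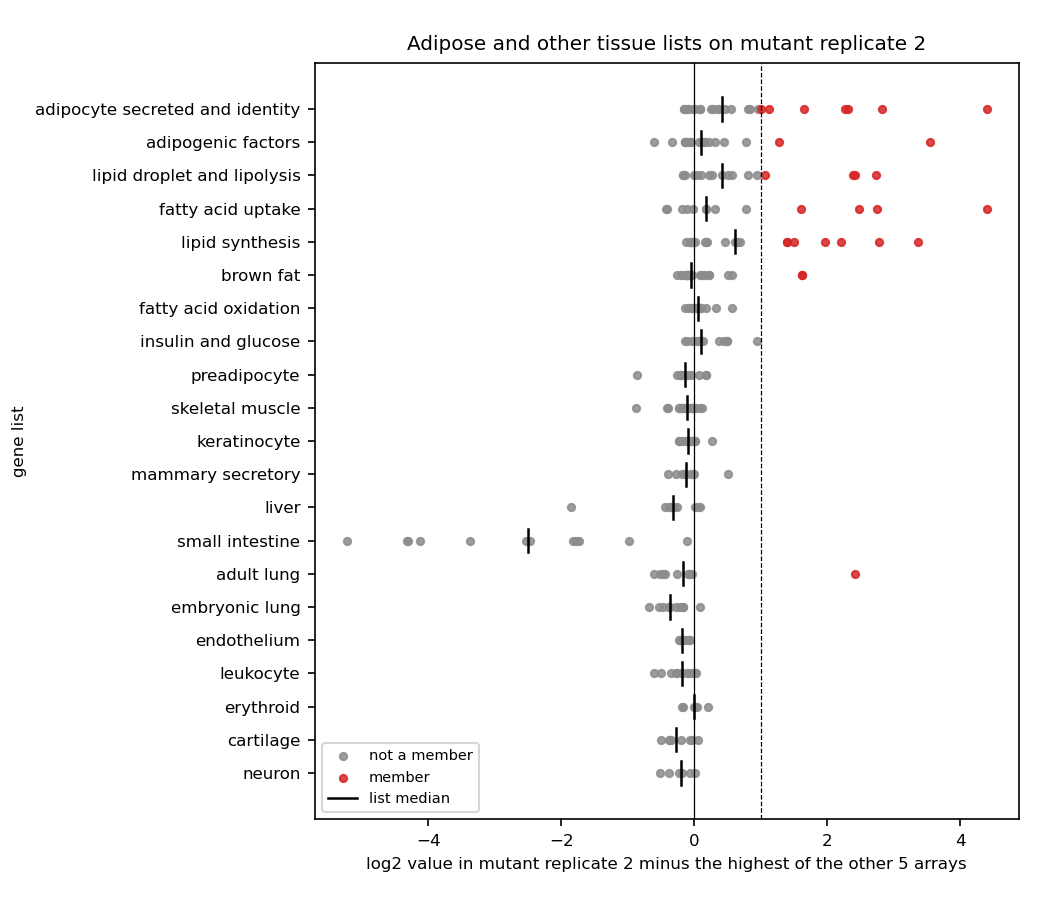
Margin of mutant replicate 2 over the highest of the other 5 arrays (horizontal axis, log2) for each measured gene of 9 adipose and 12 other lists (rows); red points are members, grey points are not, and black bars are list medians. Members lie in 6 of the adipose lists and 1 point in the adult lung list, the medians run up to 0.61 for lipid synthesis, and the small intestine genes lie far to the left because they are high in control replicate 1.

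Close relatives of the members mostly did not share the pattern. In 24 gene families, chosen after the values were seen, 25 members had 64 measured relatives, with a median margin of -0.06 and a highest of 0.85 (Pnpla3). Mutant replicate 2 was the highest array in 23 of the 64 (35.9%), against 19.3% of all genes. It was the highest by over 0.5 in 3, namely Pnpla3, Dgat1 (0.61) and Cidea (0.56), against 0.568% of all genes. Beside Fabp4 the fatty acid-binding protein genes Fabp5, Fabp3 and Fabp7 had margins of 0.17, -0.11 and -0.39. Beside Pparg the related receptor genes Ppard and Ppara had 0.29 and -0.13, and beside Cebpa the 4 other C/EBP genes lay between -0.14 (Cebpd) and 0.14 (Cebpb). The perilipin genes Plin2, Plin3 and Plin5, which are expressed in many tissues that store lipid, had 0.22, -0.14 and 0.0015, against 2.39 for Plin1. Pck2, the mitochondrial form of Pck1, had -0.06, and Cox7a2, the widely expressed form of Cox7a1, -0.11. Dcn and Lum, proteoglycan genes of mesenchyme related to Aspn, had -0.01 and -0.18, and Bgn 0.19.

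**Figure D4:**
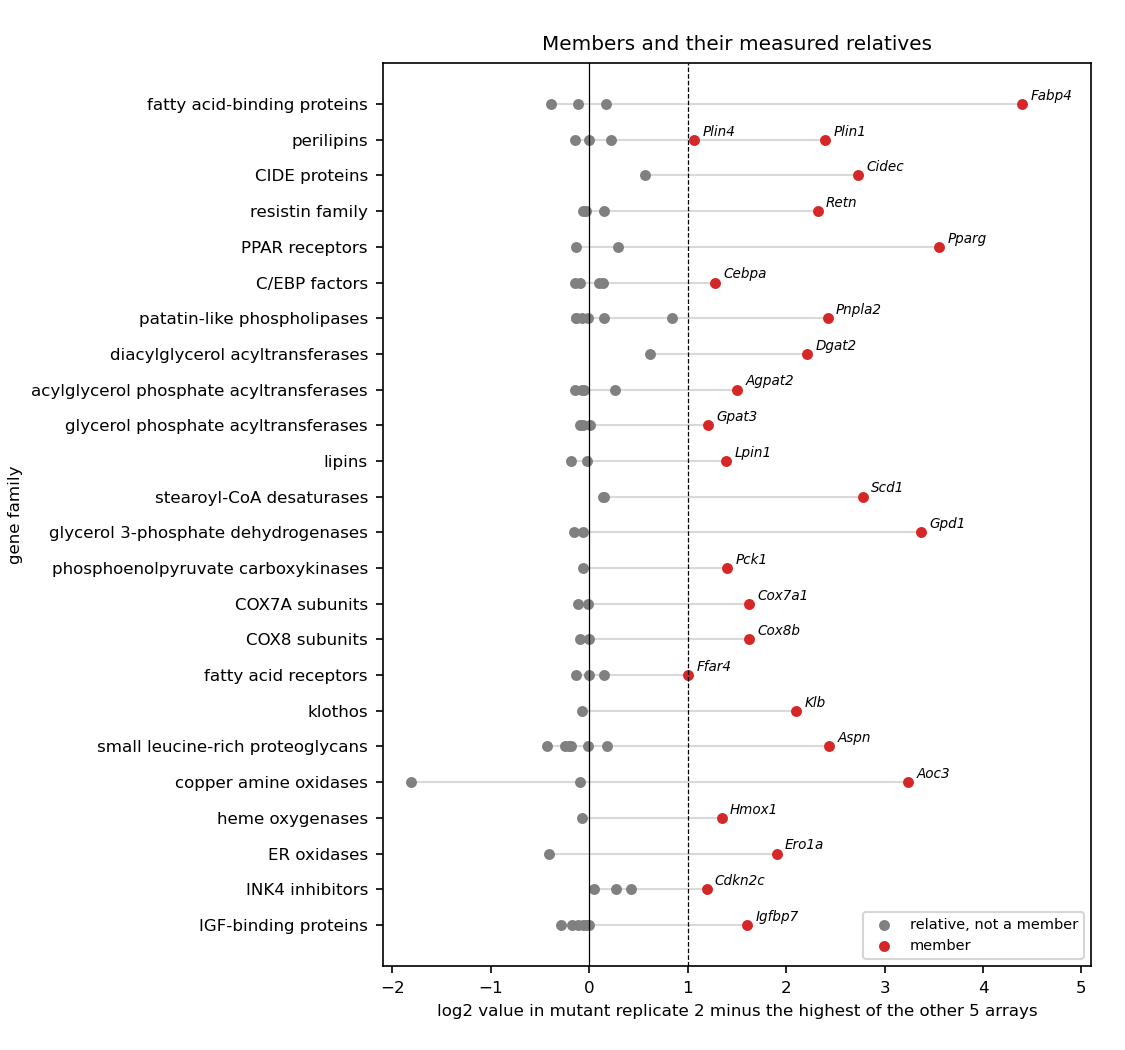
Margin of mutant replicate 2 over the highest of the other 5 arrays (horizontal axis, log2) for members (red, named) and their measured relatives (grey) in 24 gene families (rows); the dashed line marks 1. Every grey point lies left of the dashed line because a relative beyond it would be a member. The nearest is Pnpla3 at 0.85, and the lowest is Aoc1 at -1.81, which is high in control replicate 1.

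For 4 members a second probe set of the same gene, not used to choose it, was on the array. The second probe set of Lpl was higher in mutant replicate 2 by 0.31 and that of Ero1a by 0.21, against 2.47 and 1.90 in the probe sets used. Those of Gpat3 and Gpd1 had margins of 0.0074 and -0.02. The means of these 4 probe sets over all arrays were 5.37 to 7.18, and the position of each probe set in its gene is unknown here.

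The genotypes were compared without mutant replicate 2, as mutant replicates 1 and 3 against the 3 controls. The choice of genes used these 5 arrays too, as the highest of them set each margin. A gene equally high in all 3 mutants could not be a member, so for the 55 genes this comparison is a description. The median log2 difference of the 55, mutant minus control, was 0.03, against 0.01 over all genes. Differences ran from -0.76 (Scd1) to 0.36 (Ifi27). The mutant mean was the higher in 37 of the 55, against 55.7% of all genes. limma called 0 of 22180 genes at an adjusted p under 0.05 (0%), and 0 of the 55. At an unadjusted p under 0.05 it counted 2281 genes (10.3%), among them 5 of the 55 (9.09%), 4 higher (6.37% of all genes) and 1 lower (3.92%). limma with a trended, robust variance called 23 genes, 0 of them members. The number of arrays, 2 against 3, limits the precision of this comparison.

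The 4 members with the smallest p in that comparison had the following values. Scd1 differed by -0.76 (SE 0.13, limma adjusted p = 0.206), with both mutants below all 3 controls. Ifi27 read 7.22 and 7.27 in mutant replicates 1 and 3 against 7.03, 6.83 and 6.79 in controls, a difference of 0.36 (SE 0.08, limma adjusted p = 0.301). Igfbp7 read 8.51 and 8.65 against 8.37, 8.27 and 8.23, a difference of 0.29 (SE 0.07, limma adjusted p = 0.323). Apoc1 read 7.82 and 7.86 against 7.66, 7.63 and 7.76, a difference of 0.16 (SE 0.06, limma adjusted p = 0.468). Both mutants lay above all controls in 8 of the 55 genes (16.5% of all genes) and below them in 3 (12.3%), which were Scd1, Ero1a and Slc35e3.

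**Figure D5:**
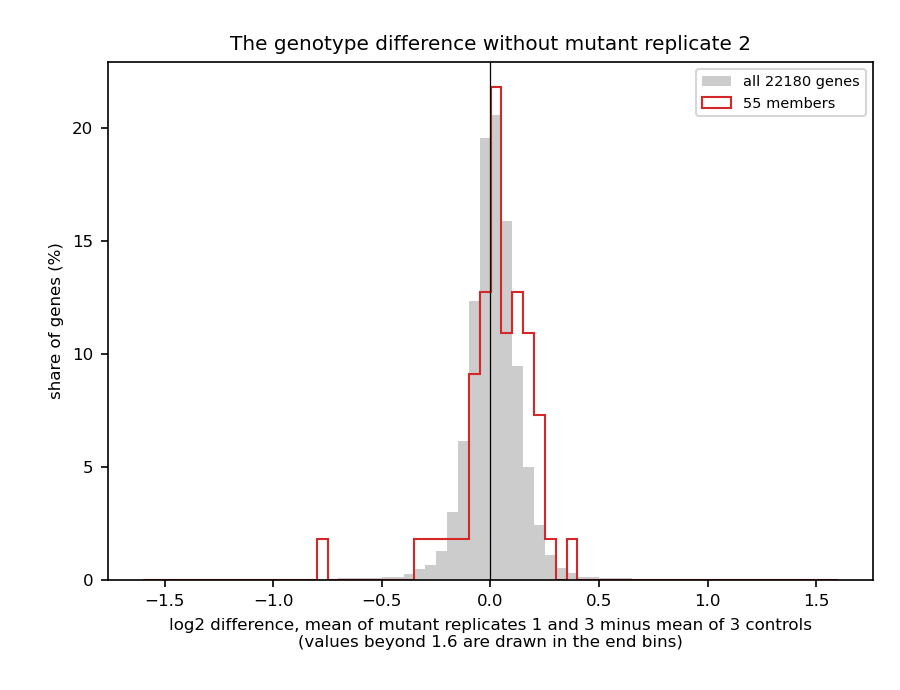
Share of genes (vertical axis, percent) by log2 difference between the mean of mutant replicates 1 and 3 and the mean of the 3 controls (horizontal axis) for all 22180 genes (grey bars) and the 55 members (red outline). Both distributions centre near 0, with medians of 0.01 and 0.03, and the member farthest to the left is Scd1 at -0.76.

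With all 6 arrays the genotype comparison holds the values that chose the genes, and its result for them is a description. All 55 had a higher mutant mean (54.8% of all genes), with a median log2 difference of 0.68, and 0 of them were among the 14 genes (0.0631%) that limma called at an adjusted p under 0.05; with any 1 of the 6 arrays left out limma called 0 genes. The smallest adjusted p among them was that of Ifi27 (difference 0.84, SE 0.36, limma adjusted p = 0.396). Fabp4, for example, differed by 1.83 with an SE of 1.65. Without mutant replicate 2 the median of 0.68 became 0.03.

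Among the other 5 arrays the highest was not the same array in all members. The highest of the 5 was mutant replicate 3 in 20 genes (24.0% of all genes), control replicate 3 in 13 (16.4%), mutant replicate 1 in 10 (21.4%), control replicate 1 in 9 (17.3%) and control replicate 2 in 3 (20.9%). The lowest was control replicate 2 in 28 of the 55, against 25.7% of all genes. In 4 members control replicate 3 was more than 0.25 above the other 4 arrays, a threshold chosen after the values were seen that 48 of all genes (0.216%) passed. These were Fabp4 (1.79), Cidec (0.43), Adipoq (0.40) and Aoc3 (0.27). Their values in control replicate 3 were 8.52, 7.68, 6.39 and 6.36, below those of mutant replicate 2 by the margins given above.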

How the data were processed

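Total RNA (100 ng) from whole lung buds was hybridised to 6 Affymetrix arrays, 3 per genotype. The authors deposited log2 expression values per probe set made with RMA through oligo, per the submitters' processing notes; no source here names a genome build for the array. The table held 41345 probe sets, named through the platform annotation: 23521 had 1 gene symbol, 1814 several and 16010 none. For 1082 genes with several probe sets the one with the highest mean was used, which left 22180 genes. No further scaling was applied (array medians 7.29 to 7.32).

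The members, the 21 gene lists and the grouping were chosen with earlier results of these data known. Genotypes were compared with limma 3.58.1 (R 4.3.3; lmFit, eBayes, Benjamini-Hochberg adjustment over all genes, threshold 0.05), with and without mutant replicate 2; margins and figures used Python 3.11.15 and matplotlib 3.10.9. The script was tested on simulated data of 22180 genes. Without mutant replicate 2 it recovered 90% of genes changed by 1 on the log2 scale and 66% of those changed by 0.5. There were 8 false among 182 calls. With 6 simulated arrays it recovered 96% and 68%. Both simulations took the spread of each gene from the arrays other than mutant replicate 2. They therefore do not give the recovery of the real comparison with all 6 arrays. Both drew normal noise, independent between genes and arrays, with no array standing apart. Recovery in the real comparison without mutant replicate 2 can therefore differ as well. Values in all arrays are given for the 4 markers, the 12 widest margins, the 4 smallest p, the 3 genes on each side of the margin and label checks; of each list the 2 highest and 2 lowest genes outside the members are named. p-values measure only the spread between these arrays. Deviations of same-numbered controls and mutants correlated by -0.04, -0.06 and 0.07, and those of unlike-numbered ones by -0.09 to 0.14. With 3 arrays per genotype these values cannot decide whether the numbers pair the samples. Alternatives were another normalization, a filter on low values, averaged probe sets, other margins and thresholds, another variance model, the replicate block and leaving out arrays. Of the 22180 genes, 22139 were found in the reference gene table.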

Additional observations from a re-analysis of the deposited data

Results flagged for a closer look

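Outside the genes analysed, 15 probe sets with no gene symbol or with several had the same pattern, over 1 above every other array in mutant replicate 2. They were 15 of 17824 such probe sets (0.0842%), with margins from 1.08 to 3.76: 14 of the 16010 without a symbol and 1 of the 1814 with several. They carry no single gene name in the annotation used here.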

How the results depend on the processing

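The count of 55 genes was 123 at a margin above 0.5, 34 at 1.5 and 20 at 2. With quantile scaling, a filter on low values (by the mean of all 6 arrays, mutant replicate 2 included) or averaged probe sets it was 54, 52 and 54. With the probe set of highest variance the count was 58 and with the margin taken over the median of the other arrays 69. It was 56 to 57 with 1 other array left out and 58 without control replicates 1 and 3 together, an alternative chosen after seeing the data. Leaving out another array can only keep or raise a margin, so these counts could not fall below 55. Without mutant replicate 2, limma called 0 genes by genotype, 14 at an adjusted p under 0.10, 23 with a trended, robust variance, and 0 to 5 with another array left out (1 without mutant replicate 1 and 5 without mutant replicate 3). With all 6 arrays it called 14, and 57 at an adjusted p under 0.10, 8 after quantile scaling, 25 after the filter, 46 with the trended, robust variance and 0 with any 1 array left out. With the replicate number as a block it called 0 with all 6 arrays and 0 without mutant replicate 2, where 1712 genes had an unadjusted p under 0.05. No member was called under any of these settings. In the fits that hold mutant replicate 2 the choice of genes itself widens the spread among mutants, so those fits are a description. Averaging probe sets lowered the margin of Gpd1 to 1.73 and of Lpl to 1.48. The pattern rests on a single array and each genotype has 2 or 3, which limits the precision; the deposited values carry no background signal per probe set.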
